A study of Mus musculus with 108 samples.

Results

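The postsynaptic scaffold genes described here are the 10 members of the Dlg family (Dlg1, Dlg2, Dlg3 and Dlg4), the Shank family (Shank1, Shank2 and Shank3) and the Homer family (Homer1, Homer2 and Homer3), taken by gene name alone, with no measured value used, out of 53465 genes in the deposited table. All 10 had enough reads to be tested in every comparison, with at least 117 reads in each library used. In WT mice most Dlg and Shank genes rose between E17.5 and P7 in forebrain and between P7 and P35 in cerebellum. The Homer genes took separate courses: at P35 Homer3 was 50.7-fold higher in cerebellum than in cortex, while Homer1 and Homer2 were 7.13-fold and 4.48-fold lower there. None of the 10 genes passed the threshold between mice lacking 1 copy of Cul3 and WT mice, in any region at any age.

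These genes encode proteins of the postsynaptic density, the protein mat beneath the receptors of an excitatory synapse. Dlg proteins lie nearest the membrane and hold glutamate receptors and channels through PDZ domains. Dlgap proteins link Dlg to Shank, and Shank in turn binds Homer, whose EVH1 domain grips group I metabotropic glutamate receptors and the inositol trisphosphate receptor. Long Homer proteins join these partners through a coiled coil. Homer1 also makes a short, activity-induced isoform that lacks the coil, which gene-level counts cannot separate from the long form.

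The data were bulk RNA-seq libraries of 3 brain regions, the cerebral cortex (CX), the hippocampus (HIP) and the cerebellum (CB), taken from WT and Cul3+/- (HET) mice as embryos (E17.5), at postnatal day 7 (P7) and as adults at day 35 (P35). HET mice carried a 1-base insertion made with CRISPR in exon 6 of Cul3, which encodes a ubiquitin ligase scaffold, and all came from 1 founder bred on a background spelled C56Bl/6N in the labels. Of 108 libraries, 102 were used, with 6 WT and 6 HET mice for each region at E17.5 and P7 and 5 and 5 at P35. The remaining 6 libraries came from 2 adult mice whose genotypes stand the opposite way round in the labels and in the study's quality table.

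Library totals ran from 15126114 to 44411282 estimated reads. Cul3 was lower in HET than in WT mice in all 9 combinations of age and region, by 0.74 to 0.99 on the log2 scale, and passed the threshold in each. Cortex and cerebellum carried the markers of their labels at P35: in WT mice, 5 forebrain projection neuron markers summed to 1310.1 CPM (reads scaled to a common library total) in cortex and 478 in cerebellum, where 3 of the 5 were under 1 CPM, and 5 granule cell markers summed to 18.9 and 3299.9 CPM. In 6 libraries the summed CPM of 308 sense-intronic genes (transcripts annotated inside introns of other genes) was above 1.25 times the median of their group. They were WT replicates 1 and 6 of E17.5 hippocampus, WT replicate 4 of P7 cortex, WT replicate 4 and HET replicate 3 of P7 hippocampus, and WT replicate 3 of P35 cerebellum. Counts and calls of members that changed without them are given both ways. In bulk tissue, fewer cells of a type and less RNA per cell cannot be told apart. Sex is not in the labels, and p-values measure the spread between the sampled mice. Between regions, where the mouse was a block, that is the spread of the region differences over mice.

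Levels are CPM after a TMM normalization over the 102 libraries. Changes are log2 differences ± SE from edgeR's quasi-likelihood test, with a call where the p adjusted by Benjamini-Hochberg over all genes tested was at most 0.1. Since 46.5% to 82.9% of all genes were called between WT ages or regions, members are counted where they were called and differed at least 2-fold, beside the share of all genes that met the same rule in the same direction. The ages share libraries with each other and so do the regions, so that their comparisons are not independent.

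**Figure D1:**
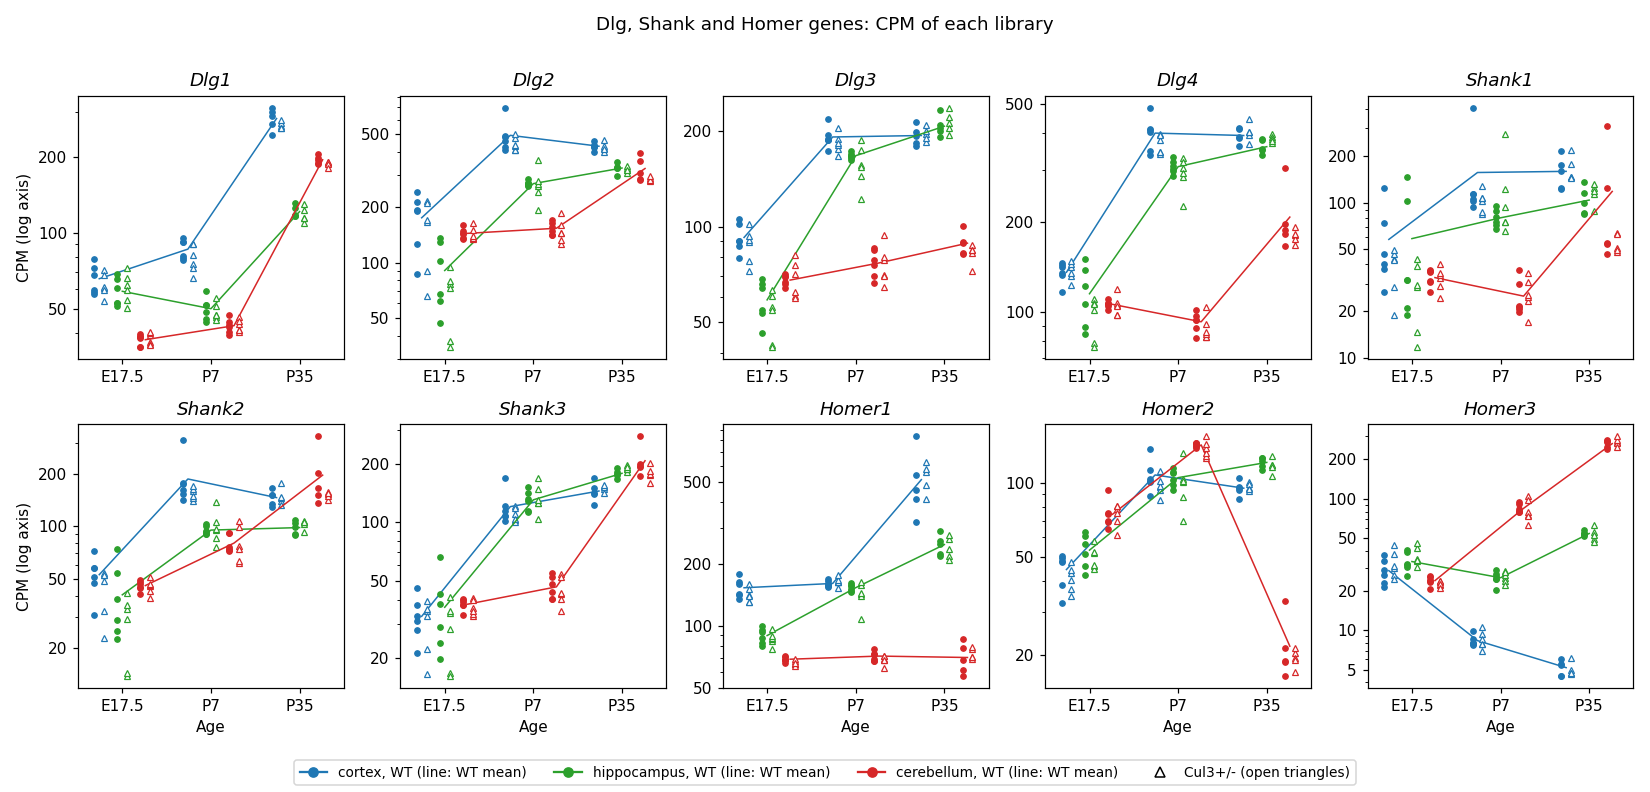
CPM of each of the 10 genes (1 panel each, log axis) in every used library against age, with lines through the WT means of cortex, hippocampus and cerebellum. Most Dlg and Shank levels climb by P7 in the forebrain regions and by P35 in cerebellum, and in cerebellum Homer2 and Homer3 part after P7, to 21.7 and 264 CPM.

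From E17.5 to P7 most of the scaffold genes rose in WT cortex. Of the 10, 7 rose at least 2-fold, where 22.9% of all genes did, and 1, Homer3, fell that far, where 14.5% did. The median change of the 10 was 1.30 on the log2 scale, and that of all genes 0.01. In hippocampus 5 of 10 rose at least 2-fold (17.8% of all genes) and 0 fell (13.1%), with a median of 1.10. In cerebellum 1, Homer3, rose that far (10% of all genes) and 0 fell (10.1%), with a median of 0.17. At the adjusted p alone 9, 9 and 7 of 10 were called in cortex, hippocampus and cerebellum, beside 81.9%, 78% and 71.2% of all genes. When the libraries high in sense-intronic counts were left out, 5 of 10 rose at least 2-fold in cortex (22.4% of all genes), where Shank1 and Dlg3 no longer did, and 7 in hippocampus (19.2%), where Shank1 and Homer2 were added. Cell markers moved too. The summed level of 4 pan-neuronal markers in WT cortex was 608 to 972 CPM at E17.5 and 2640.0 to 3208 at P7, and that of 4 progenitor and cycling markers 432 to 997 and 95.4 to 123. In cerebellum the neuronal sum was 825 to 1027 and 1048 to 1183, and the progenitor sum 756 to 894 and 785 to 978. The part of these shifts in the members' changes was not tested.

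From P7 to P35 the broad rise was in the cerebellum. There 7 of 10 rose at least 2-fold, where 16.6% of all genes did, and 1, Homer2, fell that far, where 17.7% did. The median change of the 10 was 1.24, and that of all genes 0.01. In cortex 2 of 10, Dlg1 and Homer1, rose that far (10.3% of all genes) and 0 fell (11.6%). In hippocampus 2, Dlg1 and Homer3, did (7.95%), with 0 falling (10.4%). At the adjusted p alone 3, 7 and 9 of 10 were called in cortex, hippocampus and cerebellum, beside 67.7%, 62.7% and 79.4% of all genes. With those libraries left out, 5 were called in cortex and 9 in hippocampus (67.7% and 66.1% of all genes), with Shank1 added in both, Shank3 in cortex at 0.42 ± 0.14 and Dlg2 in hippocampus. Summed pan-neuronal markers of WT cerebellum were 3351 to 3562 CPM at P35. There 4 Purkinje cell markers summed to 1034 to 1224 CPM at P7 and 2812 to 3944 at P35, and 5 oligodendrocyte markers to 295 to 1792 and 2231 to 5115. Their part was not tested.

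**Figure D2:**
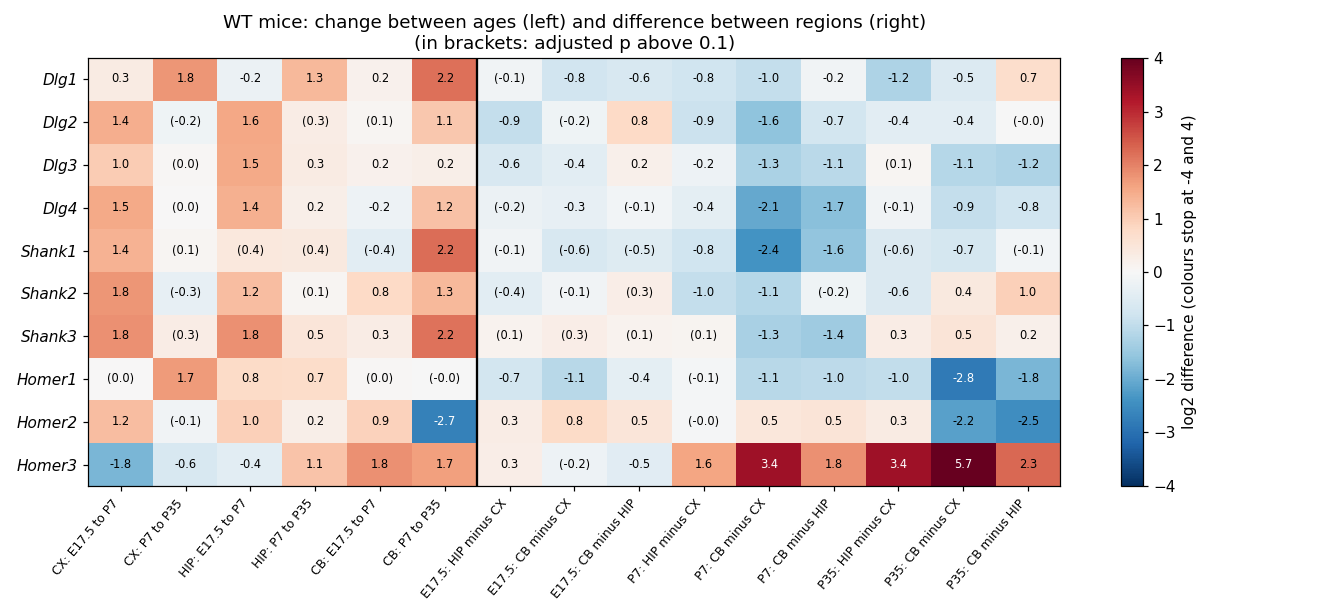
Log2 changes of the 10 genes between successive ages in each region and differences between regions at each age in WT mice, with red for higher, blue for lower and brackets where the adjusted p was above 0.1; colours stop at a size of 4. The early columns of cortex and hippocampus and the late column of cerebellum are mostly red, and the Homer rows differ from each other between cerebellum and cortex, from -2.83 for Homer1 to 5.66 for Homer3 at P35.

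Dlg4 encodes PSD-95, a main scaffold of mature excitatory synapses (ENSMUSG00000020886, chromosome 11, 70016942 to 70047522, plus strand, with positions here and below on GRCm38). In WT cortex Dlg4 ran from 117 to 146 CPM at E17.5 (median 138, n = 6) and from 338 to 486 at P7 (median 406, n = 6). At P35 the 5 WT cortices held 360.3, 384, 387, 413 and 416 CPM. The embryonic and P7 libraries did not overlap, while P7 and P35 did. Dlg4 rose by 1.50 ± 0.08 (adjusted p = 1.48e-11) before P7, and its later change was 0.01 ± 0.08 (adjusted p = 0.944). Hippocampus rose by 1.41 ± 0.11 before P7, and by 1.61 ± 0.09 without the libraries high in sense-intronic counts. The early change in cerebellum was -0.21 ± 0.10 (adjusted p = 0.0878), a call that 9 of the fits without 1 replicate did not keep. By P35 the 5 WT cerebella held 167, 184, 188, 198 and 305 CPM against 81.6 to 101 at P7, a rise of 1.18 ± 0.11 (adjusted p = 1.17e-08) in which the top library was WT replicate 3. Without it the rise was 1.01 ± 0.06. Cerebellum lay 4.15-fold below cortex at P7 (log2 difference -2.05 ± 0.06) and 1.92-fold below it at P35.

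Dlg2 encodes PSD-93, a close relative of PSD-95 (ENSMUSG00000052572, chromosome 7, 90476672 to 92449247, plus strand), and 30 other annotated genes overlap its long locus, 22 of them on its own strand. The 6 embryonic WT cortices spread from 86.5 to 243 CPM (median 192) and the hippocampi from 47.0 to 137 (median 84.4). All lay under the lowest P7 library of their region, 409.8 and 260.3 CPM. Dlg2 rose before P7 by 1.44 ± 0.19 in cortex (adjusted p = 1.48e-06) and 1.56 ± 0.19 in hippocampus (adjusted p = 1.14e-06). Its later changes there, -0.16 ± 0.20 and 0.31 ± 0.20, were not called. Without the libraries high in sense-intronic counts the early rise in hippocampus was 1.94 ± 0.15, and the later change there was 0.30 ± 0.14 and called (adjusted p = 0.0759). Cerebellum gave 0.08 ± 0.08 (adjusted p = 0.395) before P7 and rose by 1.09 ± 0.08 after it (adjusted p = 5.21e-10), to 280.2, 285, 308, 357 and 395 CPM in the 5 WT mice.

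Dlg3, on the X chromosome, encodes SAP102, a Dlg protein known from young synapses (ENSMUSG00000000881, chromosome X, 100767722 to 100818410, plus strand). Its means over the 9 WT groups differed the least of the 10 genes, 3.54-fold between P35 and E17.5 hippocampus (208 and 58.7 CPM). It rose before P7 by 1.01 ± 0.07 in cortex, 1.50 ± 0.08 in hippocampus and 0.16 ± 0.06 in cerebellum. At P35 the cerebella held 81.8, 82.7, 88.9, 89.3 and 101 CPM and the cortices 179.9, 184, 193, 199 and 215. The groups did not overlap, and cerebellum was 2.20-fold lower (-1.14 ± 0.05, adjusted p = 1.10e-09), where at E17.5 it had been 1.33-fold lower.

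Dlg1 encodes SAP97, which occurs on both sides of the synapse and outside neurons (ENSMUSG00000022770, chromosome 16, 31663443 to 31875129, plus strand). It rose late. WT cortex ran from 57.3 to 78.7 CPM at E17.5 (median 63.8) and from 77.8 to 94.9 at P7 (median 86.3), and at P35 the 5 mice held 244, 269, 290.0, 302 and 313 CPM. The P7 to P35 rise was 1.75 ± 0.09 in cortex (adjusted p = 1.38e-11), 1.30 ± 0.09 in hippocampus (adjusted p = 8.67e-10) and 2.20 ± 0.05 in cerebellum (adjusted p = 3.26e-17). Before P7 it had moved by 0.34 ± 0.09, -0.24 ± 0.08 and 0.17 ± 0.05, each called. At P35 cortex was highest, then cerebellum, then hippocampus, at 284 ± 27.5, 195 ± 7.08 and 121 ± 6.40 CPM (SD, n = 5), and none of these groups overlapped. Oligodendrocyte markers climbed in the same interval, with a sum of 101 to 137 CPM in P7 WT cortex and 3278 to 4289.9 at P35, and their part was not tested.

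The Dlg genes can be set against each other per kilobase of exon. Here and below the length joins the exons of all annotated transcripts of a gene, and the transcripts in use may be shorter. Shares therefore depend on the annotation. In CPM without this scaling, P35 WT cortex held 430 for Dlg2, 392 for Dlg4, 284 for Dlg1 and 194 for Dlg3. In E17.5 WT cortex Dlg3 made up 36.8% ± 1.10 of the summed Dlg CPM per kb (SD, n = 6) and Dlg1 14.5% ± 3.26. By P7 the Dlg1 share was 7.97% ± 0.717, and by P35 the 4 genes were nearer to each other, at 22.8% ± 1.75, 22.9% ± 1.0, 28.7% ± 0.775 and 25.6% ± 1.22 for Dlg1 to Dlg4 (n = 5). The summed level in cortex was 43.0 ± 4.51, 101 ± 13.0 and 116 ± 5.73 CPM per kb at the 3 ages, and in cerebellum 31.97 ± 0.951, 33.6 ± 2.38 and 69.0 ± 8.83.

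Shank3 binds Dlgap proteins through its PDZ domain, and loss of the human gene is known from Phelan-McDermid syndrome (ENSMUSG00000022623, chromosome 15, 89499623 to 89560261, plus strand). In WT cortex it ran from 21.2 to 45.7 CPM at E17.5 (median 32.04) and from 101 to 170.3 at P7 (median 111), with no overlap. It rose before P7 by 1.83 ± 0.16 in cortex (adjusted p = 4.73e-09) and 1.83 ± 0.21 in hippocampus (adjusted p = 3.74e-07). The hippocampal rise was 2.18 ± 0.15 without the libraries high in sense-intronic counts. Cerebellum rose by 0.28 ± 0.10 before P7 and by 2.17 ± 0.11 after it (adjusted p = 1.02e-12). Its WT cerebella held 40.1 to 54.6 CPM at P7, and 173, 193, 195, 199.6 and 277 at P35. The relation of the regions turned over, with cerebellum 2.48-fold below cortex at P7 and 1.42-fold above it at P35 (0.50 ± 0.08, adjusted p = 1.02e-04).

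Shank2 (ENSMUSG00000037541, chromosome 7, 144001928 to 144424494, plus strand) has a known part in Purkinje cells, and rose before P7 in all 3 regions. The rise was 1.78 ± 0.19 in cortex (adjusted p = 9.53e-08), 1.22 ± 0.22 in hippocampus (adjusted p = 5.93e-05) and 0.80 ± 0.16 in cerebellum (adjusted p = 2.14e-04). Without the libraries high in sense-intronic counts the hippocampal rise was 1.69 ± 0.12 and the cortical 1.58 ± 0.15. A further 1.31 ± 0.16 followed in cerebellum by P35 (adjusted p = 6.58e-07, 1.05 ± 0.10 without those libraries), to 136, 152, 166, 202 and 329 CPM in the 5 WT mice. The highest of the 5 was WT replicate 3.

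Shank1 (ENSMUSG00000038738, chromosome 7, 44310253 to 44360572, plus strand) had the widest spreads of the 10 relative to their means. Its 6 WT values spread from 18.9 to 146 CPM in E17.5 hippocampus and from 93.0 to 407 in P7 cortex, and the 5 P35 cerebella held 46.4, 54.1, 54.6, 124 and 309.7. The maximum of each was a library high in sense-intronic counts. In the 6 libraries of that kind Shank1 stood at 1.22 to 5.67 times its group's median, Shank2 at 1.08 to 2.21 times and Shank3 at 1.17 to 1.98 times. Homer1 and Homer3 stood at 0.84 to 1.10 and 0.81 to 1.02 times theirs.

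**Figure D3:**
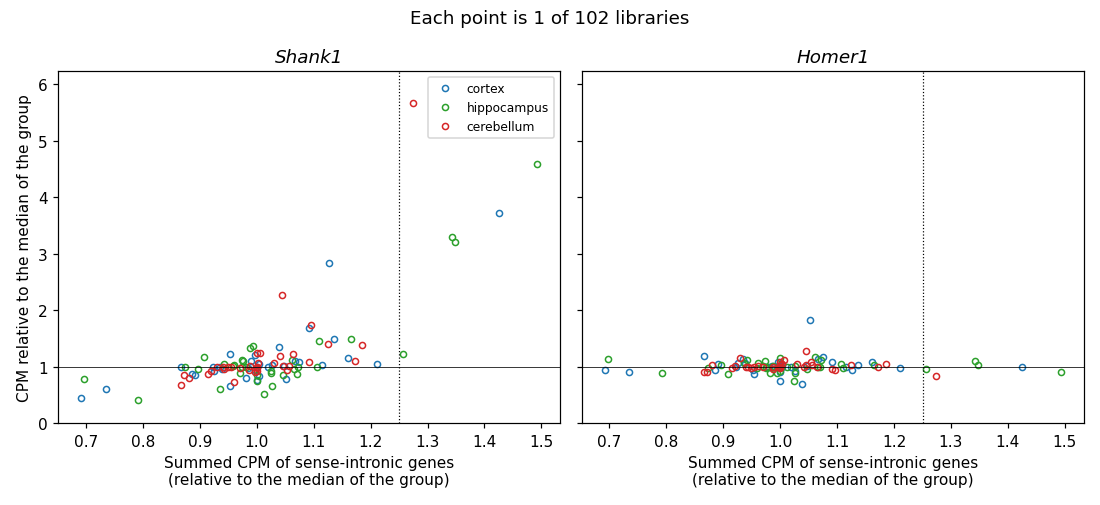
CPM of Shank1 and of Homer1 in each of the 102 libraries against the summed CPM of 308 sense-intronic genes, both relative to the median of the library's own group, with a dotted line at the limit of 1.25. In 5 of the 6 libraries past the line Shank1 is more than 3 times its group's median, while Homer1 lies between 0.84 and 1.10 times.

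The Shank1 results depended on those libraries. The hippocampal change before P7 was 0.44 ± 0.40 with all WT libraries (adjusted p = 0.329) and 1.54 ± 0.18 without them (adjusted p = 1.69e-06). In cortex it was 1.38 ± 0.39 and 0.83 ± 0.29, past the threshold both ways. The later change in cortex was 0.06 ± 0.40 (adjusted p = 0.902) with all libraries and 0.61 ± 0.30 (adjusted p = 0.0866) without them. In cerebellum the rise by P35 was 2.24 ± 0.39 (adjusted p = 3.73e-05) and 1.50 ± 0.24 (adjusted p = 1.48e-05). HET mice gave 2.05 ± 0.36 for hippocampus before P7 and 1.09 ± 0.15 for cerebellum after it. The hippocampal value includes HET replicate 3 of P7, also high in sense-intronic counts. Its Shank1 level was 277 CPM against a median of 75.4 in the other mice.

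Per kilobase, Shank3 made up 50.8% ± 2.95 of the summed Shank level in P35 WT hippocampus, 46.1% ± 8.39 in cerebellum and 35.7% ± 2.04 in cortex (SD, n = 5). In P7 cerebellum Shank2 made up 50.1% ± 1.54 and Shank1 15.8% ± 2.44 (n = 6).

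Homer3 (ENSMUSG00000003573, chromosome 8, 70282827 to 70294361, plus strand, overlapped on the other strand by Ddx49) is the Homer protein known from Purkinje cells. In the 5 WT mice of P35 it held 241, 249.7, 271, 276 and 283 CPM in cerebellum, 52.2, 53.7, 54.4, 54.9 and 57.7 in hippocampus and 4.45, 4.50, 5.40, 5.48 and 6.09 in cortex. The regions did not overlap, and HET mice kept the same order at 249.8 to 299.6, 47.4 to 63.7 and 4.64 to 6.13 CPM. WT cerebellum exceeded cortex 50.7-fold (5.66 ± 0.08, adjusted p = 1.88e-14) and hippocampus 4.86-fold (2.28 ± 0.07). At E17.5 the level had been 28.4 ± 6.18 CPM in cortex, 33.4 ± 5.80 in hippocampus and 23.9 ± 1.83 in cerebellum (SD, n = 6), with ranges that overlapped.

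The Homer3 gap opened from both sides. In cerebellum Homer3 rose by 1.81 ± 0.07 (adjusted p = 2.15e-13) and then 1.65 ± 0.07 (adjusted p = 5.05e-14). In cortex it fell by 1.82 ± 0.13 (adjusted p = 4.21e-10) and then 0.65 ± 0.14 (adjusted p = 4.81e-04). In hippocampus it fell by 0.42 ± 0.10 and then rose by 1.14 ± 0.11. The 4 Purkinje markers summed to 2812 to 3944 CPM in P35 WT cerebellum and 147 to 171 in cortex, where 2 of the 4 were under 1 CPM, and their part was not tested.

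Homer2 (ENSMUSG00000025813, chromosome 7, 81600481 to 81707527, minus strand) went up and then down in cerebellum. Its 6 WT cerebella ran from 65.0 to 93.2 CPM at E17.5 (median 72.3) and from 138 to 146 at P7 (median 143), the highest of the 9 WT groups. At P35 the 5 cerebella held 16.4, 18.7, 18.9, 21.4 and 33.2 CPM, the lowest of the 9, with WT replicate 3 on top. The rise was 0.92 ± 0.12 (adjusted p = 2.65e-06) and the fall 6.54-fold (-2.71 ± 0.14, adjusted p = 2.13e-12). HET cerebellum fell by 2.81 ± 0.08. Before P7 Homer2 also rose in cortex by 1.23 ± 0.11 and in hippocampus by 0.97 ± 0.09.

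Homer1 (ENSMUSG00000007617, chromosome 13, 93299635 to 93405129, plus strand) rose in forebrain and had like means in cerebellum at all ages. The WT cerebellar means were 68.9 ± 1.97, 71.4 ± 3.85 and 70.2 ± 12.2 CPM at E17.5, P7 and P35, with overlapping ranges and changes of 0.04 ± 0.08 and -0.01 ± 0.08. The P35 cortices held 320.3, 415, 459, 543 and 835 CPM, all above the 155 to 169 of P7. Cortex gave 0.02 ± 0.16 before P7 (adjusted p = 0.904) and rose by 1.71 ± 0.17 after it (adjusted p = 5.82e-08). Hippocampus rose in both intervals, by 0.76 ± 0.07 and 0.72 ± 0.08. Cerebellum lay 7.13-fold below cortex at P35 (-2.83 ± 0.13, adjusted p = 9.62e-10).

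**Figure D4:**
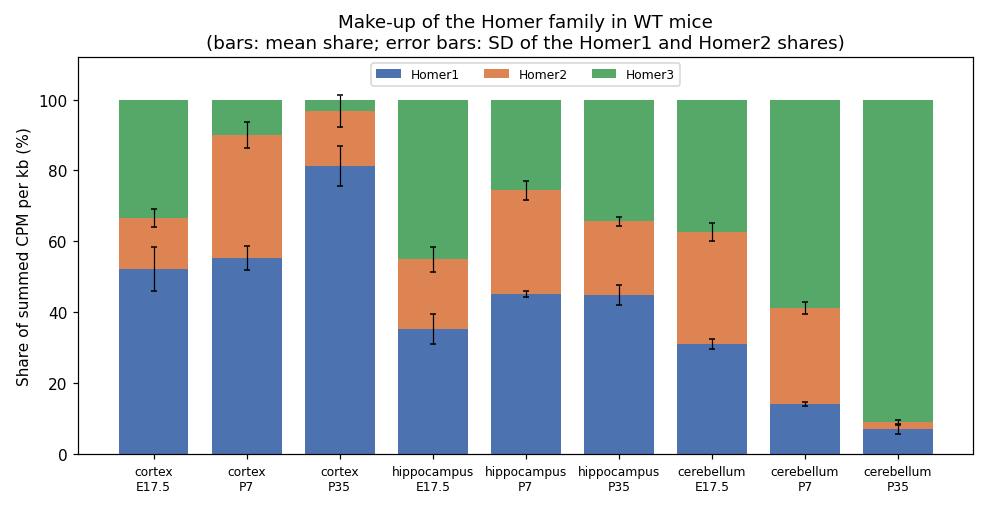
Mean share of Homer1, Homer2 and Homer3 in the summed Homer CPM per kb of WT mice (stacked bars, percent) in each region and age, with error bars for the SD of the Homer1 and Homer2 shares over 6 or 5 mice. The Homer3 share shrinks with age in cortex to 3.16% and grows in cerebellum to 91.0%.

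Per kilobase the family was mixed in every region at E17.5, when Homer1 made up 52.2% ± 6.14 of the summed Homer level in cortex, 35.2% ± 4.21 in hippocampus and 31.003% ± 1.51 in cerebellum (SD, n = 6). By P35 Homer1 made up 81.3% ± 5.58 in cortex and Homer3 91.0% ± 1.20 in cerebellum (n = 5). Hippocampus stayed mixed, at 44.8% ± 2.79 Homer1, 20.8% ± 1.38 Homer2 and 34.4% ± 1.43 Homer3. The change from E17.5 to P35 was tested for a difference between cerebellum and cortex. In WT mice it differed by 5.90 ± 0.13 for Homer3, -2.90 ± 0.17 for Homer2 and -1.67 ± 0.13 for Homer1, and in HET mice by 6.24 ± 0.17, -3.16 ± 0.12 and -1.75 ± 0.11, all called. Over the 10 genes, 1 passed the 2-fold rule upward and 2 downward in WT mice, where 11.8% and 21% of all genes did.

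The sequences just upstream of the Homer genes are shown because the 3 genes moved apart. They are the 250 bases before the start of the RefSeq gene models (GRCm38.p6), for Homer1 at chr13:93303507-93303756 (plus strand), for Homer2 at chr7:81706926-81707175 (minus strand) and for Homer3 at chr8:70282749-70282998 (plus strand). Capitals mark TGACG, a cyclic AMP response element half-site, and GGGCGG, a GC box, both searched on either strand, so that a GC box on the other strand reads CCGCCC. The Homer1 and Homer2 windows lie inside the gene ends given above, and the Homer3 window spans its gene's start. These motifs were picked after the expression values had been seen.
Homer1: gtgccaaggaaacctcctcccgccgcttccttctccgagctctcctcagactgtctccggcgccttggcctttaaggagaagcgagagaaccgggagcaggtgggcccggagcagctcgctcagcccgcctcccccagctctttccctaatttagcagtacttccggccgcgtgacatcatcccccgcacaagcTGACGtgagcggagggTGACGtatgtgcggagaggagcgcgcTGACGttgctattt
Homer2: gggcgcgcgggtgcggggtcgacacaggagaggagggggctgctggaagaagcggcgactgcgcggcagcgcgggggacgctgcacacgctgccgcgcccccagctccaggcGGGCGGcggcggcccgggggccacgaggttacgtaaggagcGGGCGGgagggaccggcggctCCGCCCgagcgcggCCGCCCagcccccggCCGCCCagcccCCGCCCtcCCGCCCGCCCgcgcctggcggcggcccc
Homer3: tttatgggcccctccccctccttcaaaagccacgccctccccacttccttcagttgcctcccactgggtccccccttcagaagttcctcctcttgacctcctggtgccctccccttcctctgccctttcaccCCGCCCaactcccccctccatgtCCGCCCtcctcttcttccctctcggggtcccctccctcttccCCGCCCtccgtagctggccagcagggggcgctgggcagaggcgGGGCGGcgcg
The Homer1 window held 3 copies of TGACG and 0 of GGGCGG, the Homer2 window 0 and 8, and the Homer3 window 0 and 4. RefSeq gives Homer1 and Homer2 a further start each, whose windows, not shown, held 0 copies of either. Of 32851 such windows over all genes, 17.8% held TGACG and 0.688% at least 3 copies, while 32.7% held GGGCGG, 4.09% at least 4 copies and 0.155% at least 8. The full element TGACGTCA, in 1.55% of windows, was in none of the Homer windows shown. These are matches of letters and were not tested as binding sites.

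Between regions of the same WT mice, cerebellum lay below cortex for most members at P7. Of the 10, 7 were at least 2-fold lower (18.3% of all genes), with log2 differences from -1.12 for Homer1 to -2.39 for Shank1, and 1, Homer3, was at least 2-fold higher (14.7%). At P35 3 were that far below, Dlg3, Homer1 and Homer2 (15.8%), and 1, Homer3, above (11.6%). Without the libraries high in sense-intronic counts, Shank2 at P7 was short of 2-fold, at -0.98 ± 0.06, and at P35 Dlg4 passed it, at -1.08 ± 0.06 (-0.94 ± 0.11 with all), as did Shank1, at -1.15 ± 0.26 (adjusted p = 0.00146) where it was -0.71 ± 0.35 with all (adjusted p = 0.0853). Against hippocampus, 5 of 10 were lower and 1 higher in cerebellum at P7 (15% and 12% of all genes), and 3 and 1 at P35 (15.3% and 12.3%).

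At E17.5 Homer1 was 2.18-fold lower in cerebellum than in cortex (-1.12 ± 0.07, adjusted p = 1.14e-08), the lone member past the 2-fold rule there (1 of 10 lower, 5.82% of all genes, and 0 higher, 13.4%). No member passed it between hippocampus and cortex (8.92% of all genes higher and 3.35% lower) or between cerebellum and hippocampus (8.64% and 5.83%). Without the libraries high in sense-intronic counts, Shank1 and Dlg2 passed it between hippocampus and cortex, at -1.12 ± 0.27 and -1.22 ± 0.22, and Dlg2 between cerebellum and hippocampus, at 1.06 ± 0.21.

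Between hippocampus and cortex, Homer3 was 2.97-fold higher in hippocampus at P7 (1 of 10, 4.24% of all genes, with 0 lower, 6.42%). At P35 Homer3 was 10.4-fold higher (1 of 10, 4.8%) and Dlg1 2.36-fold lower (1 of 10, 6.97%, adjusted p = 6.31e-09). The Dlg1 difference grew with age, since its change from E17.5 to P35 differed between hippocampus and cortex by -1.07 ± 0.09 in WT mice (adjusted p = 2.39e-11) and -1.11 ± 0.09 in HET mice. For Dlg3 this went the other way, at 0.74 ± 0.09 and 0.89 ± 0.13. In that test 1 of 10 WT values passed the 2-fold rule upward, Homer3, and 1 downward, Dlg1, where 4.13% and 10.8% of all genes did.

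At E17.5 the adjusted p alone called 5, 5 and 6 of 10 members between hippocampus and cortex, cerebellum and cortex, and cerebellum and hippocampus, beside 46.5%, 61.7% and 49.5% of all genes. At P7 it called 7, 10 and 9 in the same order, beside 57%, 82.9% and 78.2% of all genes. At P35 it called 7, 10 and 8 in the same order, beside 51.5%, 75.4% and 75.1% of all genes. Leaving out the libraries high in sense-intronic counts gave 7, 7 and 8 at E17.5 (44.8%, 64.2% and 45.5% of all genes), 8, 10 and 10 at P7 (56.7%, 82.7% and 79.4%), and 9, 9 and 9 at P35 (56.1%, 75.8% and 75.1%). The calls lost were Homer2 between hippocampus and cortex at E17.5 and Shank2 between cerebellum and cortex at P35 (0.19 ± 0.11), and those gained were of Shank1, Shank2, Shank3 and Dlg4. Between the changes of regions over ages the adjusted p called 4 for hippocampus and cortex and 7 for cerebellum and cortex, beside 44.3% and 66.6%. Without those libraries it called 6 for hippocampus and cortex (43.8% of all genes), with Dlg4 added at 0.33 ± 0.10 and Shank3 at 0.54 ± 0.15.

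Partners of these scaffolds, 26 genes listed by role, were tested in the same fits. From E17.5 to P7, 13 of 26 rose at least 2-fold in WT cortex and 14 in hippocampus, with 0 and 0 falling that far. In cerebellum 3 rose and 4 fell. From P7 to P35, 10 rose and 2 fell in cerebellum, 4 rose in cortex and 6 in hippocampus. The shares of all genes are those given above for each interval.

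Among the Homer-bound partners, Itpr1, an inositol trisphosphate receptor, rose in cerebellum by 2.55 ± 0.22 and then 2.89 ± 0.23. Grm5, a metabotropic glutamate receptor, in cerebellum fell by 2.70 ± 0.12 after P7. At P35 cerebellum exceeded cortex by 2.28 ± 0.07 on the log2 scale for Itpr1, and for Grm5 the difference was -4.72 ± 0.11. Dnm3, a dynamin, fell by 1.11 ± 0.16 and then rose by 1.92 ± 0.17 in cerebellum.

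Among the scaffold partners, Dlgap1, which joins Dlg to Shank, rose in cerebellum by 1.99 ± 0.08 after P7, whereas Dlgap3 fell by 0.51 ± 0.09. Before P7 Dlgap3 rose in cortex by 2.45 ± 0.14 and Dlgap2 by 1.67 ± 0.25. At P35 Dlgap2 differed between cerebellum and cortex by -6.19 ± 0.20. Lgi1, a secreted ligand tied to Dlg proteins through Adam22, rose by 1.93 ± 0.09 in cortex before P7 and by 2.35 ± 0.10 in cerebellum after it.

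The members were also set against all other genes over 51 WT libraries, which share ages and regions, as a description. The gene most like Dlg4 in log2 level was Adgrb1 (Pearson r = 0.979 in WT and 0.988 in HET libraries). For Shank3 it was Prrt2 (0.974 and 0.977), for Dlg3 Arf3 (0.964 and 0.969), for Dlg2 Ntrk2 (0.959 and 0.974) and for Dlg1 Spire1 (0.952 and 0.939). Shank1 was most like Smap2 (0.957 and 0.935). Homer2 was most like Cyb5b (0.916 and 0.865) and Homer3 most like Smarcd2 (0.919 and 0.918), and for Homer1 the named gene nearest to it was Ankrd63 (0.916 and 0.918), after AC122898.1 (0.923 and 0.918). Among members the highest correlation was between Dlg3 and Dlg4 (0.943) and the lowest between Homer1 and Homer3 (-0.641).

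The study asked what loss of 1 copy of Cul3 does to these brain regions. Among the scaffold genes HET mice gave no call. In each of the 9 comparisons with WT mice 0 of 10 members passed, where 0.00603%, 0.00586% and 0.00568% of all genes did in cortex, hippocampus and cerebellum at E17.5, 0.00566%, 0.00563% and 0.0057% at P7, and 0.00569%, 0.00584% and 0.00584% at P35, which is 1 gene each. Of the 90 member values, 4 had an unadjusted p under 0.05 in edgeR, and DESeq2 gave 0 calls and 5 such values. The 4 lay in P35 hippocampus and cerebellum, where 1070 of 17123 and 2459 of 17110 genes had such a p. With 5 RUVs factors, the study's scheme against unwanted variation, 2 to 476 of all genes per comparison were called and 0 members. The paper, using such factors, reports many more called genes than these main fits gave. Its number of factors varied between comparisons and its model held sex, which the RUVs fits here did not. It also reports that its called genes at early postnatal and adult ages, and in each region, were enriched for postsynaptic genes. That enrichment was not tested here. The 90 member values ran from -1.12 to 0.57 with a median of -0.04, and 78 of them were under 0.25 in size.

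**Figure D5:**
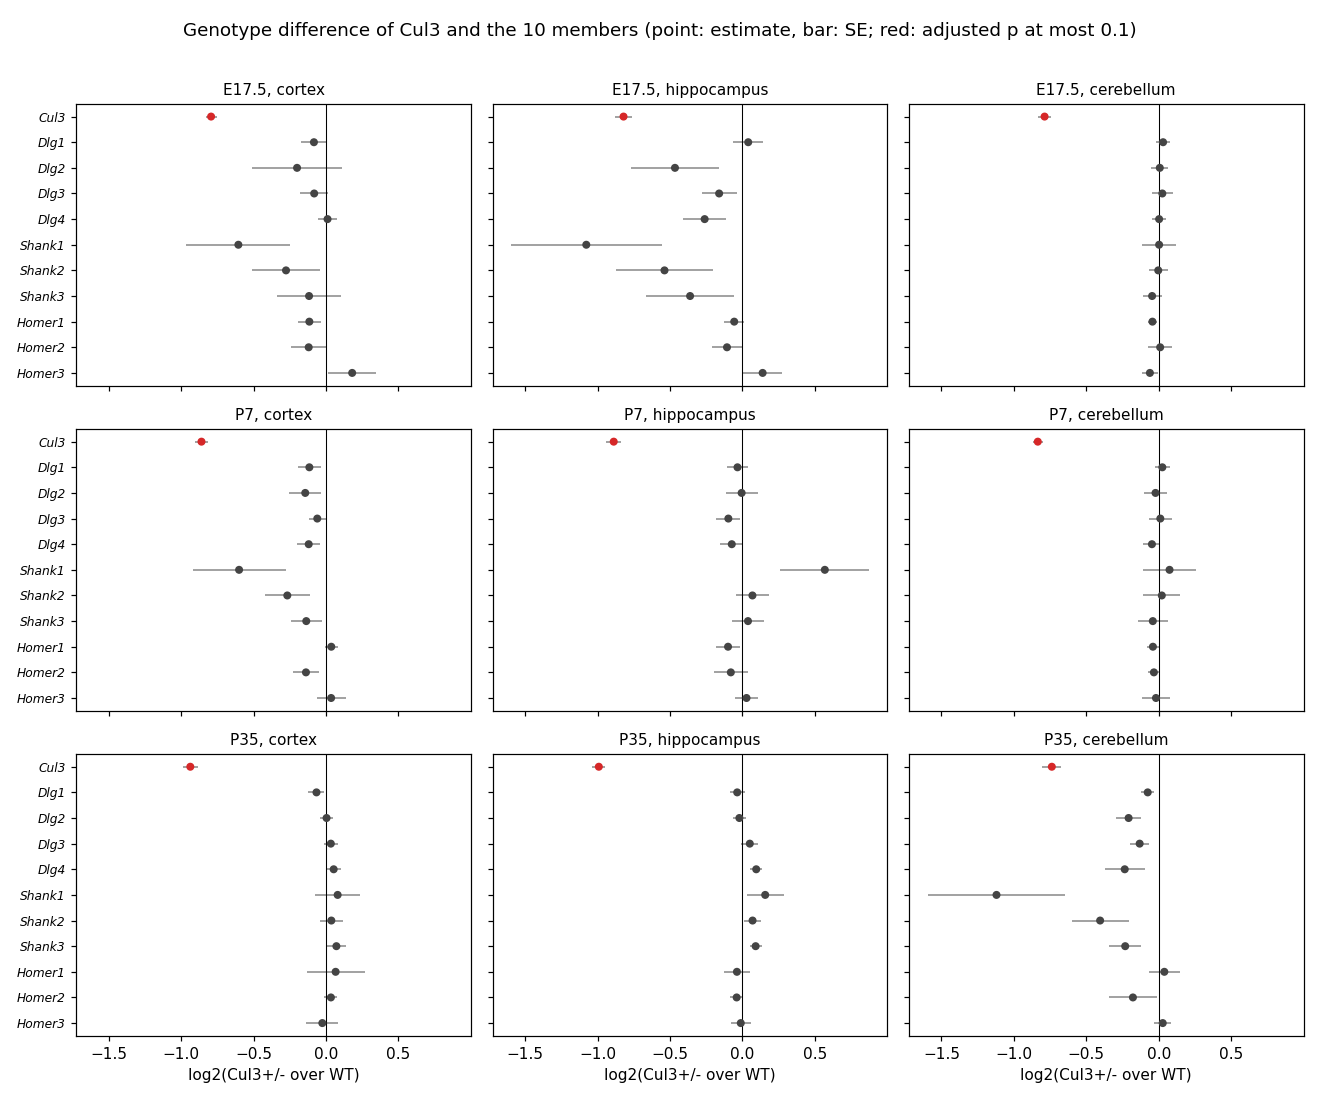
Log2 difference of HET from WT mice (points) with its SE (bars) for Cul3 and the 10 genes, by age and region, in red where the adjusted p was at most 0.1. Cul3 is red in all 9 panels and no scaffold gene is, and the widest bar, an SE of 0.52, belongs to Shank1 in E17.5 hippocampus.

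Homer3 in P35 cerebellum held 249.8, 266, 273, 279.9 and 299.6 CPM in HET mice, overlapping the WT values above, with a 95% interval of -0.10 to 0.16 for the log2 difference. Dlg4 in P35 cortex had an interval of -0.06 to 0.16. Homer1 in P35 cortex had a wider one, -0.37 to 0.50, and Dlg2 in E17.5 hippocampus -1.12 to 0.19. The Dlg2 difference there was -0.47 ± 0.30 with all libraries and -0.08 ± 0.30 without WT replicates 1 and 6, its highest WT values. These replicates do not carry the name prefix S3, whose libraries held the lowest Dlg2 there, so that S3 mice weighed more in the remaining WT group. With mice of the same replicate number paired, the Dlg2 difference was -0.46 ± 0.11 (adjusted p = 0.407) with all libraries.

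The smallest p of the 90 was that of Dlg4 in P35 hippocampus, 0.10 ± 0.04 (adjusted p = 0.796), with 336, 351, 352, 377 and 381 CPM in WT mice and 371, 377, 382, 389 and 396 in HET mice. These ranges overlap. Shank3 in the same tissue gave 0.09 ± 0.04 (adjusted p = 0.796). In P35 cerebellum Dlg2 gave -0.21 ± 0.09 (adjusted p = 0.344) and Shank1 -1.12 ± 0.47 (adjusted p = 0.344). Without WT replicate 3, whose Dlg2 was the highest of the WT group, the Dlg2 difference was -0.13 ± 0.06 (adjusted p = 0.447).

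The large Shank1 values moved with the libraries high in sense-intronic counts. In P35 cerebellum the HET mice held 47.9, 49.2, 51.1, 62.9 and 63.4 CPM, and without WT replicate 3 the difference was -0.38 ± 0.25. In E17.5 hippocampus it was -1.08 ± 0.52 with all libraries and 0.10 ± 0.34 without WT replicates 1 and 6. With mice of the same replicate number paired it was -0.79 ± 0.34 there (adjusted p = 0.494) with all libraries. In P7 cortex it was -0.60 ± 0.32, and -0.04 ± 0.09 without WT replicate 4. In P7 hippocampus it was 0.57 ± 0.31, and 0.17 ± 0.15 without WT replicate 4 and HET replicate 3. Without these libraries 0 of the 40 member values in those 4 comparisons were called and 0 had an unadjusted p under 0.05 in edgeR.

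In E17.5 cortex, WT and HET mice with the same replicate number deviated together, with all 6 correlations above 0.1. With the replicate number as a block, 55 of 16594 genes were called there, against 1 without it, and no member was among them. Under the block Homer3 gave 0.18 ± 0.04 (adjusted p = 0.14) and Dlg2 -0.25 ± 0.06 (adjusted p = 0.178). The same mice gave the other E17.5 regions, where the block called 1 of 17061 genes in hippocampus and 1 of 17621 in cerebellum, again no member. In hippocampus 1723 of the 17061 genes had an unadjusted p under 0.05 in edgeR. The members among them were Dlg2 at -0.46 ± 0.11 (adjusted p = 0.407), Dlg3, Shank2 and Homer3. The last were at -0.17 ± 0.06, -0.53 ± 0.19 and 0.14 ± 0.05 (each adjusted p = 0.464).

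The mean over the 3 regions of each mouse, fitted with limma, gave 0 calls of 10 at each age (0.00537%, 0.031% and 0.00525% of all genes at E17.5, P7 and P35) and 0 of 30 values with an unadjusted p under 0.05. The interaction of genotype with age called no member (0% of all genes in each region), and 2 of 30 values had an unadjusted p under 0.05, both of Shank1, in cerebellum (adjusted p = 0.335) and hippocampus (adjusted p = 0.997). DESeq2 also called 0 there, with 2 such values, and without the libraries high in sense-intronic counts there were 0. The interaction of genotype with region called no member either (0%, 0% and 0.00525% of all genes at the 3 ages), and the 3 of 30 values with an unadjusted p under 0.05 were those of Shank3 (adjusted p = 0.255), Shank1 (adjusted p = 0.302) and Dlg4 (adjusted p = 0.31) at P35. Without the libraries high in sense-intronic counts 1 of the 30 had one, Shank3 at P35 (adjusted p = 0.522). Of the 26 partners, 0 were called in the 9 comparisons or in the means over regions.

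Homer1 was compared with 10 immediate early genes, which neuronal activity induces. Over the 10 or 12 libraries of an age and region, Pearson's r ran from -0.40 to 0.58, and 0 of the 9 relations passed a permutation test after Benjamini-Hochberg adjustment. The largest was in P7 hippocampus, with r = 0.584 (permutation p = 0.0665, adjusted p = 0.599) and Spearman's rho = 0.217 (permutation p = 0.501), and r was 0.07 without the 2 libraries farthest from the median. In P35 cortex, where Homer1 varied most, r was -0.28 and rho -0.31, with permutation p-values of 0.442 and 0.388 and an adjusted p of 0.795 for r.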

How the data were processed

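Total RNA depleted of ribosomal RNA was sequenced, and per the labels and the study's methods the authors trimmed reads with cutadapt 1.14, aligned them to GRCm38.p5 (mm10) with STAR 2.5.3a and quantified genes with RSEM 1.3. The deposited values are expected counts per gene, of which 5.77% were not whole, and they were rounded here. The strand setting of the counting is not given in the sources used here. Of 53465 gene IDs, 99.6% matched a symbol in the GENCODE annotation of GRCm38, from which positions and exon lengths were taken. Totals of 15126114 to 44411282 per library (median 32663960) left the lowest member count at 117.

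Genes passing filterByExpr (minimum count 10) were fitted with edgeR 4.0.16 in R 4.3.3, using TMM and the quasi-likelihood test, with SE as the log2 difference over the square root of F and 95% intervals from the t quantile at the test's total degrees of freedom. Differences between regions and between regions over ages carried the mouse as a block, the mean over regions used limma 3.58.1 with the mouse as a block, and DESeq2 1.42.0 was an alternative. The study's scheme, RUVs factors after upper-quartile scaling, was run with 3 and 5 factors as alternatives, without the study's term for sex. Same-numbered WT and HET mice were checked for shared deviations: in E17.5 cortex all 6 correlations were above 0.1 (0.113 to 0.759, median 0.474, against -0.094 between other numbers), so that the block result is given there. Elsewhere 1 to 5 of the 5 or 6 pairs were above 0.1, and the main fits do not pair the mice. At E17.5 a number names the same mice in each region, so that the block result is also given for hippocampus and cerebellum. A prefix in the mouse names, shared by same-numbered WT and HET mice at E17.5 and P7, was tried as a block. Genes named are the 10 members, the partners listed by role, and for each member the gene with the highest Pearson r over WT libraries. Some genes that this rule names are not reported here. The members and lists were chosen with earlier results of these data known. The script was tested on simulated data. Promoters came from RefSeq (18 windows for 8 members). Left out were 6 libraries of 2 adult mice with conflicting genotypes.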

Additional observations from a re-analysis of the deposited data

Results flagged for a closer look

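In 10 of 180 cases, a gene in a group of 5 or 6 libraries, 1 mouse lay far from the rest by Dixon's test, where chance alone flags about 1 in 20, and 7 of the 10 lay in libraries high in sense-intronic counts. In WT replicate 4 of P7 cortex these were Dlg2 at 698 CPM against a median of 457 in the other mice, Shank1 at 407 against 105, Shank2 at 312 against 161 and Shank3 at 170.3 against 108. In WT replicate 3 of P35 cerebellum they were Dlg4 at 305 CPM against 186 and Shank3 at 277 against 194, and in HET replicate 3 of P7 hippocampus Shank1 at 277 against 75.4. Outside those libraries, Shank2 was low in HET replicate 2 of P35 hippocampus (92.7 CPM against 106), Homer1 low in HET replicate 1 of P7 cerebellum (62.2 against 68.8) and Homer3 high in HET replicate 4 of P35 cortex (6.13 against 4.72).

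The change from E17.5 to P35 in WT mice differed between regions by the test of that difference for 7 members in cerebellum against cortex and 4 in hippocampus against cortex. For cerebellum minus cortex the log2 values were 5.90 for Homer3, -2.90 for Homer2, -1.67 for Homer1, -0.68 for Dlg3, -0.57 for Dlg4, 0.56 for Shank2 and 0.26 for Dlg1. The Shank2 value was -0.09 ± 0.18 in HET mice (adjusted p = 0.68), and the Dlg1 value was 0.16 without P35 WT replicate 3 (adjusted p = 0.137). For hippocampus minus cortex they were 3.15 for Homer3, -1.07 for Dlg1, 0.74 for Dlg3 and 0.57 for Dlg2. Without the libraries high in sense-intronic counts the Dlg2 value was 0.86 ± 0.20.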

How the results depend on the processing

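Values for single members were followed across the alternatives. Between ages and between regions these were values called in the main WT fits, so that calls gained elsewhere were not counted. Of these, 982 of 1012 between ages kept their direction and their call. So did 756 of 779 between regions and 225 of 231 between regions over ages. Between genotypes, where small p-values were followed, 273 of 274 kept their direction and their side of the threshold. Fits without 1 replicate or mouse gave 1468 of all these values. In WT cortex from P7 to P35, 3 members were called, 6 in HET mice, 5 without the libraries high in sense-intronic counts (an alternative chosen after seeing the data) and 3 to 5 without 1 replicate, with 5 where E17.5 or P7 WT replicate 4 was left out. In hippocampus over that interval 7 were called, and 4 with no low-count filter. At E17.5 no member passed the 2-fold rule between cerebellum and hippocampus, but 1 did in HET mice and 1 without those libraries. Between hippocampus and cortex 0 passed at E17.5, 1 in HET mice, 2 without those libraries and 0 to 1 without 1 mouse (1 without WT mouse 1 or 6), and at P7 1 to 2 without 1 mouse (2 without WT mouse 2). The difference between hippocampus and cortex over ages was called for 4 members in WT mice and 7 in HET mice. The cause of these moves was not tested.

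Values that changed sign were, in HET mice, Shank1 between hippocampus and cortex at P7 (0.019), Shank2 between cerebellum and cortex at P35 (-0.00029) and over ages (-0.089), and Shank3 between cerebellum and hippocampus at P35 (-0.10). Shank1 between genotypes in E17.5 hippocampus became 0.10 without the libraries high in sense-intronic counts. The correlation of Homer1 with immediate early genes in E17.5 cerebellum was -0.17, and 0.019 within genotypes. Without 1 replicate or mouse, calls were lost for Dlg4 in cerebellum before P7 (9 fits) and hippocampus after it (8), Shank3 in hippocampus after P7 (4), Homer2 (3) and Homer3 (1) between hippocampus and cortex at E17.5, Homer2 there at P35 (2), Shank1 (3) and Shank2 (2) between cerebellum and cortex at P35, Dlg3 between cerebellum and hippocampus at E17.5 (2), Shank3 there at P35 (1, without WT replicate 3), and Shank2 (4) and Dlg1 (1) between cerebellum and cortex over ages.

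Between genotypes no member was called under any alternative: RUVs with 3 and 5 factors gave 6 and 10 of 90 values with an unadjusted p under 0.05, and the replicate block 12. Of the 16594 to 17754 genes tested per comparison, 429 to 1499, 686 to 1956 and 678 to 2404 had such a p under these alternatives. WT and HET mice of the same number share a prefix in their names at E17.5 and P7, and that prefix as a block gave 8 of 60 such values and 0 calls of members. Over all genes 964 to 1558 per comparison had such a p under the prefix block. The replicate block changed no genotype call of a member. Over all genes DESeq2 called 1 to 218 genes per comparison, the 218 in P35 cerebellum, where edgeR called 1. RUVs with 3 and 5 factors called 1 to 190 and 2 to 476, the most in P35 hippocampus both times, and edgeR's likelihood ratio test 150 in P35 cerebellum. With the 2 adult mice put back, 7 of 30 values at P35 had an unadjusted p under 0.05 under the genotypes of the labels and 0 under those of the quality table. Over all genes the genotypes of the labels then gave 2, 1 and 2 calls in P35 cortex, hippocampus and cerebellum. Those of the quality table gave 0 calls in each, so that Cul3, called in each region without the 2 mice, was not called. Which genotypes are right was not tested further. CPM on library totals moved 29 of 90 group means by more than 1 SD, and upper-quartile scaling none. The members held at least 117 reads in every library.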

Other observations

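In embryonic forebrain, 4 of the 12 mice (WT and HET together) carry names with the prefix S3, and their libraries stood apart for some members. In E17.5 cortex Dlg2 ran from 65.6 to 126 CPM in those 4 and from 166 to 243 in the other 8, Shank3 from 16.5 to 27.9 and 31.02 to 45.7, and Homer3 from 33.6 to 44.8 and 21.5 to 30.8. Dlg1 ran from 68.1 to 78.7 and 53.6 to 68.1. Summed pan-neuronal markers of the same cortices ran from 550.1 to 680.1 and 739.9 to 972 CPM, and progenitor and cycling markers from 865 to 1050.2 and 432 to 631. In E17.5 hippocampus Dlg2 ran from 34.5 to 61.4 and 67.4 to 137, and Homer3 from 39.7 to 46.2 and 25.8 to 34.7. There the progenitor sums ran from 975 to 1322 and 634 to 871, and the pan-neuronal sums from 299 to 568 and 514 to 862. Neither of the E17.5 hippocampal libraries high in sense-intronic counts carried the prefix S3. Values without those libraries therefore rest more on S3 mice in that WT group, and the part of this in the larger early rises was not tested. What the prefix stands for is not given in the labels.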
